A study of Mus musculus with 235 samples.

Results

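The metallothionein genes Mt1 and Mt2, their regulator Mtf1 and the zinc transporters Slc39a14 and Slc30a1, 5 of 18146 genes measured, were followed in the livers of inbred mice given isoniazid, a tuberculosis drug with known liver toxicity. They were chosen by name, and 14 probe sets were annotated with 1 of the 5 symbols alone. For each gene the probe set with the highest mean level was used, and the other probe sets are given beside it. Left liver lobes came from females of 31 inbred strains aged 8 to 10 weeks. Mice received isoniazid at 100 mg/kg (111 arrays) or sterile water as vehicle (124 arrays) by gavage on 3 consecutive days, and livers were collected 24 h later. The isoniazid groups hold survivors only: 22 strains had 4 animals, 5 strains had 3 and 4 strains had 2, because 13 animals of 9 strains had died, while every vehicle group had 4. The submitters coded 13 strains as showing steatosis, fat accumulation, under isoniazid and 18 as not, a code that belongs to the strain and not to the single animal.

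Metallothioneins are small cysteine-rich proteins that bind zinc, copper and cadmium, and the liver makes them in large amounts. In mouse cells the zinc-sensing transcription factor encoded by Mtf1 binds short metal response elements in the promoters of Mt1, Mt2 and Slc30a1 when free zinc is high, so their RNA is known to follow the zinc available to the cell. Glucocorticoids and interleukin 6 are also known to raise metallothionein RNA in the liver. Slc30a1 encodes a zinc exporter of the plasma membrane, and Slc39a14 encodes an importer of zinc, iron and manganese.

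Of the hepatocyte markers, 8 of 10 were found, and their mean log2 level was 13.14 to 13.48 in the isoniazid groups and 13.29 to 13.54 in the vehicle groups, so the tissue matched its label. The median of an array was 3.96 to 4.21 log2 units. On 21 arrays, 10 isoniazid and 11 vehicle, the values had a narrower spread than on all others. Levels are log2 values of a probe set on an array, which can be compared between animals but not between genes. No count lies behind them, and the number of arrays limits the precision.

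Mt2 and Mt1 lie next to each other on chromosome 8, Mt2 at chr8:94172618-94173567 and Mt1 at chr8:94178883-94180327 (GRCm38.p6), with 5315 bases between them. Slc30a1 lies at chr1:191906697-191913248, Mtf1 at chr4:124802549-124849800 and Slc39a14 at chr14:70303467-70351452. The promoters of the 3 genes that fell together under isoniazid are shown because MTF1 is known to act through them. Each runs 5′ to 3′ from 250 bases before to 50 after the transcript start used by the RefSeq table of build GRCm38.p6, all on the plus strand, and capitals mark the metal response element core, TGCACNC or TGCGCNC on either strand (no 2 matches overlapped).
Mt1, chr8:94178839-94179138: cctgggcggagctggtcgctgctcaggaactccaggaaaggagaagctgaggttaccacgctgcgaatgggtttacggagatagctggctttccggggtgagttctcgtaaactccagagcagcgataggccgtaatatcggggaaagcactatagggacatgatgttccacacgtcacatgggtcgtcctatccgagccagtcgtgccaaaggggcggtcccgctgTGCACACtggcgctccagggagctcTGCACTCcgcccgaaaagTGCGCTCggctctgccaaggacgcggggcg
Mt2, chr8:94172368-94172667: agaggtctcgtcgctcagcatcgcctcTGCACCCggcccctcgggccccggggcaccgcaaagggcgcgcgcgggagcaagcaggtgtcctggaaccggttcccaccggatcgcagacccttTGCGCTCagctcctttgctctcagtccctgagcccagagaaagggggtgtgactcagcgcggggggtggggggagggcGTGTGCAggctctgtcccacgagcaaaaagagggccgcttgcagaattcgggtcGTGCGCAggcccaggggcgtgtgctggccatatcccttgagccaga
Slc30a1, chr1:191906531-191906830: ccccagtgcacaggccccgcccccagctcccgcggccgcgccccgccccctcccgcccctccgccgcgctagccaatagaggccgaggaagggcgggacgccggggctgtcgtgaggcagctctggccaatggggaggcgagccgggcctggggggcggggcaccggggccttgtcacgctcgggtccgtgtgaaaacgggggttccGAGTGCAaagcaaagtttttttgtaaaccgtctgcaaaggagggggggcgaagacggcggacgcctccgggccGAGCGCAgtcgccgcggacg

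For Mt1 and Slc30a1 this start lies inside the gene interval given above, downstream of its first base, and for Mt2 it is that first base. The core occurred 4 times in the Mt2 window, 3 times in the Mt1 window and 2 times in the Slc30a1 window, and 0 times in the window of Mtf1 itself. Of all 32851 promoter windows of this length, 25.7% held at least 1 match, 7.11% at least 2, 1.97% at least 3 and 0.518% at least 4. Counted from the start, with bases before it negative, the matches began at -223, -128, -50 and 5 in Mt2, at -23, 3 and 21 in Mt1, and at -43 and 31 in Slc30a1. The core of the antioxidant response element, TGACNNNGC on either strand, which the stress factor NRF2 is known to bind, occurred 1 time in Mt2 and 1 time in Slc30a1, against 12.4% of all windows with at least 1. A match describes letters in a window and is no evidence of binding.

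The first question was whether isoniazid changed these genes over the 31 strains, each strain counted as 1 replicate. Mt1, Mt2 and Slc30a1 fell, and Slc39a14 and Mtf1 did not pass the test. Mt2 averaged 12.08 ± 0.81 log2 units in isoniazid livers and 12.63 ± 0.50 in vehicle livers (mean ± SD, n = 31 strains), 1.46-fold lower, with 29 strains lower. Mt1 averaged 13.06 ± 0.54 in isoniazid livers and 13.41 ± 0.34 in vehicle livers, 1.27-fold lower and also lower in 29 strains. The zinc exporter Slc30a1 averaged 8.56 ± 0.29 in isoniazid livers and 8.80 ± 0.27 in vehicle livers, 1.18-fold lower, and 28 strains were lower.

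By limma across all genes with Benjamini-Hochberg adjustment, the log2 change was -0.55 ± 0.087 for Mt2 (SE, adjusted p = 1.26e-05), -0.35 ± 0.063 for Mt1 (adjusted p = 7.79e-05) and -0.24 ± 0.038 for Slc30a1 (adjusted p = 1.36e-05). Over all genes 20.0% passed this test, 9.85% lower and 10.2% higher, so a call alone does not set these genes apart. The median change of all genes was 0.001 log2 units. None of the 3 falls reached 1.5-fold on average. Fewer cells of a type and less RNA per cell cannot be told apart in whole-liver RNA. The 3 genes were lower under isoniazid within each of the 10 scan dates, Mt2 by between -0.89 and -0.08 log2 units.

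The importer Slc39a14 averaged 8.68 ± 0.40 log2 units in isoniazid livers and 8.56 ± 0.30 in vehicle livers, with 19 strains higher and 12 lower. Its change of 0.12 ± 0.056 log2 units did not pass in limma (SE, adjusted p = 0.143), with a 95% interval of 0.01 to 0.23 before adjustment. It was 0.03 log2 units, and did not pass, without the animals numbered 1. It passed with animals in place of strains as the replicate (adjusted p = 0.0301) and without PWK/PhJ (0.14 log2 units), the strain with its lowest change. Mtf1 averaged 5.87 ± 0.24 log2 units in isoniazid livers and 5.88 ± 0.235 in vehicle livers, a change of -0.0017 ± 0.042 with a 95% interval of -0.09 to 0.08 (limma, adjusted p = 0.987).

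**Figure D1:**
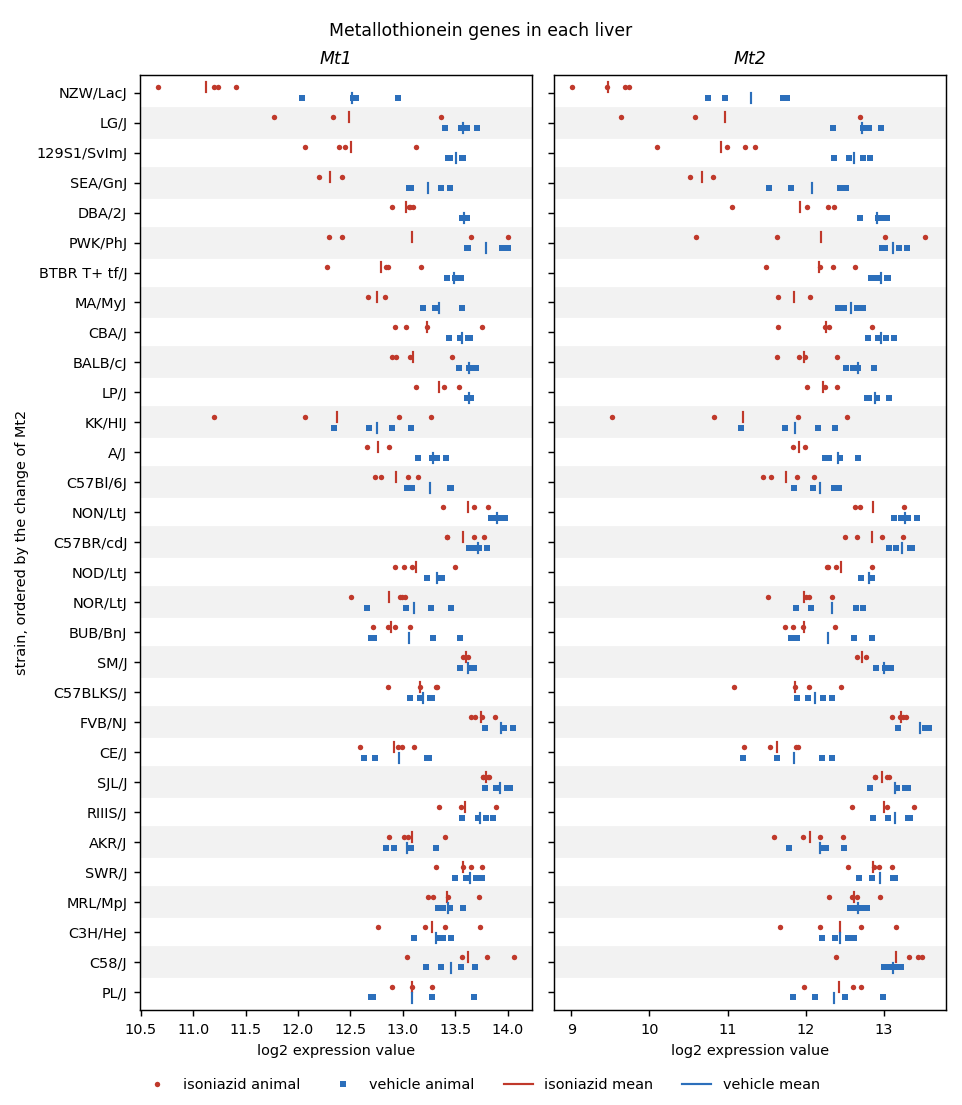
Log2 expression of Mt1 and Mt2 (horizontal axes) in every animal of the 31 strains (rows, ordered by the change of Mt2), with isoniazid animals as circles above vehicle animals as squares and a bar at each group mean. NZW/LacJ, LG/J and 129S1/SvImJ at the top had the lowest changes of Mt2, down to -1.82 log2 units, while the lowest rows show overlapping groups.

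The second question was how the response varied between strains. Within single strains the fall of the metallothioneins passed in a minority: in limma fits Mt1 and Mt2 each fell in 6, Slc30a1 in 2 and Mtf1 in 0, against 0.723% of all genes and strains called lower and 1.27% called higher. NZW/LacJ, LG/J, 129S1/SvImJ, SEA/GnJ and PWK/PhJ passed for both metallothioneins, BTBR T+ tf/J for Mt1 and DBA/2J for Mt2. With 1 animal number left out in turn, 2 to 4 strains passed for Mt1, 3 to 4 for Mt2 and 0 to 2 for Slc30a1. The strains differed in how many of the 18146 genes they called: 2747 in PWK/PhJ, 2296 in NZW/LacJ, 1045 in DBA/2J, 538 in LG/J, 413 in BTBR T+ tf/J, 402 in SEA/GnJ and 80 in 129S1/SvImJ. In Mt1 the isoniazid animals all lay below the vehicle animals in 11 strains, in Mt2 in 10, in Slc30a1 in 9, in Slc39a14 in 2 and in Mtf1 in 1, where 4.53% of all genes and strains separated in this way. The opposite separation, present for 5.04% of all genes and strains, occurred in 0 strains for Mt1, Mt2 and Slc30a1, in 4 for Slc39a14 and in 1 for Mtf1.

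By the probe sets used, NZW/LacJ had the lowest metallothionein level under either treatment and the largest fall. By the dimmer probe set of Mt1 it was not the lowest among vehicle groups. Its Mt2 level was 9.68, 9.01, 9.46 and 9.74 log2 units in isoniazid animals, against 11.71, 10.97, 11.77 and 10.75 in vehicle animals. The groups did not overlap, and the change of -1.82 ± 0.31 log2 units passed in limma (SE, adjusted p = 1.34e-06). Its Mt1 level was 11.23, 10.66, 11.20 and 11.41 in isoniazid animals, against 12.55, 12.52, 12.95 and 12.03 in vehicle animals, a change of -1.39 ± 0.21 (limma, adjusted p = 3.3e-08). In the same strain the importer Slc39a14 was higher, at 9.77, 9.23, 9.67 and 9.14 in isoniazid animals, against 8.92, 8.52, 8.69 and 8.48 in vehicle animals. That rise of 0.80 ± 0.23 log2 units also passed (limma, adjusted p = 0.00945).

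In 129S1/SvImJ, Mt2 stood at 11.36, 10.10, 10.999 and 11.23 log2 units in isoniazid animals, against 12.56, 12.37, 12.74 and 12.83 in vehicle animals, with a change of -1.70 ± 0.31 (limma, adjusted p = 0.000488). The 2 surviving isoniazid animals of SEA/GnJ had Mt2 levels of 10.82 and 10.52, against 11.54, 12.43, 11.82 and 12.52 in vehicle animals (change -1.41 ± 0.38, limma, adjusted p = 0.0352). In both strains the groups were apart. In LG/J, PWK/PhJ and KK/HIJ, by contrast, some isoniazid animals lay within or above the vehicle range. LG/J had 10.59, 9.64 and 12.69 in its 3 isoniazid animals, against 12.73, 12.81, 12.97 and 12.35 in vehicle animals, so 1 of the 3 lay within the vehicle range. PWK/PhJ had 13.01, 13.53, 11.63 and 10.59 in isoniazid animals, against 13.01, 13.20, 13.29 and 12.98 in vehicle animals, with 2 animals far below and 2 at vehicle level. KK/HIJ had 10.83, 9.52, 12.52 and 11.90 in isoniazid animals and 12.16, 11.73, 11.17 and 12.38 in vehicle animals, and its change did not pass (limma, adjusted p = 0.886).

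At the other end, C58/J and AKR/J had positive changes of Mt1 (0.16 and 0.05 log2 units) and C58/J and PL/J of Mt2 (0.05 and 0.07), none of which passed. By the dimmer probe set of Mt1 the change was 0.47 in C58/J and -0.33 in AKR/J. C58/J had Mt2 levels of 13.44, 13.32, 12.39 and 13.49 in isoniazid animals, against 13.00, 13.07, 13.23 and 13.14 in vehicle animals. It also had the largest rise of Slc39a14, with 9.69, 10.23, 8.46 and 9.39 log2 units in isoniazid animals, against 8.07, 8.11, 8.33 and 9.12 in vehicle animals (change 1.04 ± 0.23, limma, adjusted p = 0.00122). PWK/PhJ moved the other way for Slc39a14 by the probe set used, with 9.09, 8.47, 7.57 and 7.46 in isoniazid animals, against 7.92, 9.38, 9.25 and 8.59 in vehicle animals (change -0.64 ± 0.23, limma, adjusted p = 0.0437), and the groups overlapped in both strains. By the other probe sets of Slc39a14, from bright to dim, the change was 0.09, 0.20 and 0.11 log2 units in PWK/PhJ. In C58/J it was 0.86, 0.81 and 0.41.

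For Slc30a1, by its brighter probe set, the strains that passed were PWK/PhJ and DBA/2J. DBA/2J had 8.35, 8.19, 7.78 and 8.24 log2 units in isoniazid animals, against 8.84, 8.98, 9.07 and 8.41 in vehicle animals, without overlap (change -0.68 ± 0.18, limma, adjusted p = 0.00864). PWK/PhJ had 8.31, 9.59, 8.11 and 7.25 in isoniazid animals, against 8.87, 8.87, 9.41 and 8.97 in vehicle animals, and 1 isoniazid animal was above the vehicle range (change -0.71 ± 0.18, limma, adjusted p = 0.00165). The animal highest in Slc30a1 there was also the highest in Mt2. By the dimmer probe set of Slc30a1 the change was 0.13 log2 units in PWK/PhJ and -0.20 in DBA/2J.

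**Figure D2:**
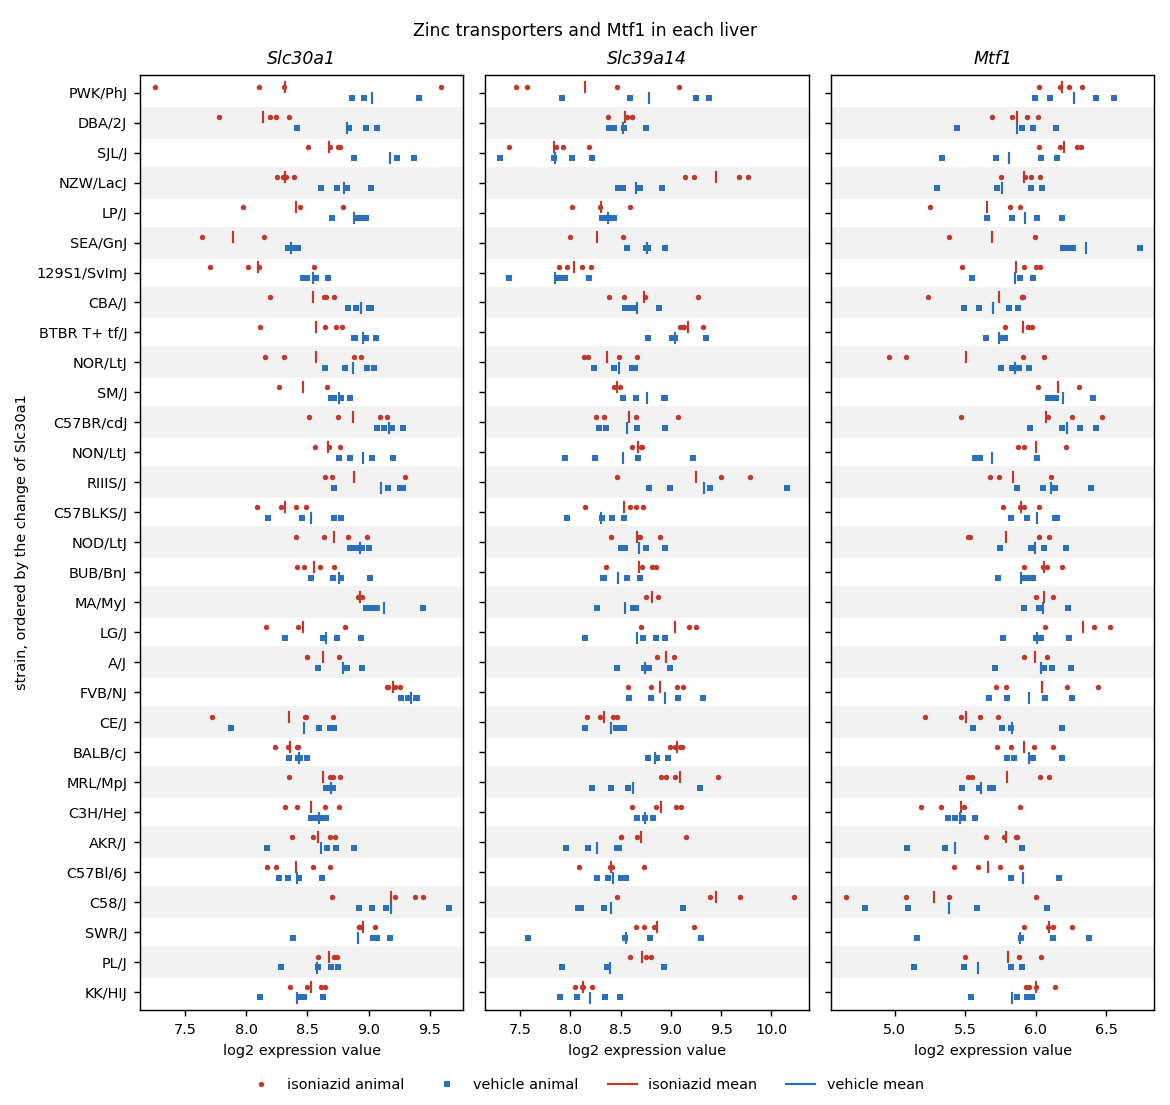
Log2 expression of Slc30a1, Slc39a14 and Mtf1 (horizontal axes) in every animal of the 31 strains (rows, ordered by the change of Slc30a1), drawn as circles for isoniazid animals above squares for vehicle animals, with bars at group means. Slc30a1 was lower in 28 strains, Slc39a14 moved to either side with NZW/LacJ and C58/J far to the right, and Mtf1 scattered around its vehicle level.

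A test of the difference between strains was made with the F test of the strain by treatment interaction in a limma fit of all groups (173 residual degrees of freedom), which 17.0% of all genes passed. It passed for Mt1 (F = 3.04, adjusted p = 7.97e-05) and Mt2 (F = 2.65, adjusted p = 0.000755). It did not pass for Slc39a14 (F = 1.82, adjusted p = 0.0529), Mtf1 (F = 1.46, adjusted p = 0.206) or Slc30a1 (F = 1.35, adjusted p = 0.28). The Mt2 result did not pass without the animals numbered 1 or those numbered 2, nor the Mt1 result without those numbered 1, with F down to 1.62 for Mt2 and 1.99 for Mt1.

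Among vehicle animals alone the strains differed in all 5 genes by the same kind of F test, which 53.4% of all genes passed. The F was 5.42 for Mt1 and 5.21 for Mt2, and 4.32 for Slc30a1, 3.36 for Slc39a14 and 3.204 for Mtf1 (limma, adjusted p = 2.86e-06 for the last, the largest of the 5). FVB/NJ had the highest vehicle level of Mt1 (13.94 ± 0.11, SD, n = 4), Mt2 (13.46 ± 0.19) and Slc30a1 (9.34 ± 0.059), and next to it in Mt1 stood SJL/J (13.92 ± 0.11), no farther away than the animals of 1 strain from each other. By the probe sets used, NZW/LacJ was lowest in Mt1 (12.51 ± 0.38) and Mt2 (11.30 ± 0.52), while its Slc30a1 level of 8.80 ± 0.17 ranked 16 of 31. The neighbour of NZW/LacJ in Mt1 was KK/HIJ (12.75 ± 0.315), within the spread, and in Mt2 CE/J (11.85 ± 0.53). By the dimmer probe set of Mt1, KK/HIJ (5.28) and C57Bl/6J (5.90) were lower than NZW/LacJ (5.93). For Slc39a14 the vehicle order ran from RIIIS/J (9.33 ± 0.60) to SJL/J (7.84 ± 0.39), and for Mtf1 from SEA/GnJ (6.36 ± 0.25) to C58/J (5.38 ± 0.57). A sequence variant of a strain under a probe can lower its level, and this was not tested.

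With the probe sets used, animals of 1 strain differed more from each other in metallothionein level under isoniazid than under vehicle. The median within-strain SD of Mt2 was 0.33 log2 units under isoniazid and 0.19 under vehicle, and the ratio of the SDs, averaged over strains on the log2 scale, was 1.69-fold, with 22 of 31 strains above 1. For Mt1 the median SD was 0.22 under isoniazid and 0.11 under vehicle, 1.80-fold, with 20 of 31 strains above 1. A two-sided sign-flip permutation test over strains, adjusted over the 5 genes, gave p = 0.00605 for each of these genes, and p = 0.258 for Slc30a1, 0.339 for Slc39a14 and 0.991 for Mtf1. With scan date as a term the Mt2 ratio was 0.57 on the log2 scale and no longer passed (adjusted p = 0.0558). The Mt1 ratio on that scale was 0.0032 with the mean of its probe sets and -0.26 with the dimmer one, and neither passed. Over both treatments the residual SD between animals of a group was 0.44 log2 units for Mt2, at percentile 95.5 of all genes, and 0.29 for Mt1, at percentile 70.8.

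The other probe sets of the 5 genes were compared next, an alternative chosen after seeing the data. The Mt1 probe set used ranked 61 of 44721 by brightness, at a mean of 13.25 where the highest value of the data was 14.65, and how far it is compressed near that limit was not tested. The dimmer Mt1 probe set averaged 6.10 ± 0.72 log2 units in isoniazid livers and 6.64 ± 0.59 in vehicle livers, with 26 strains lower. Its change of -0.53 ± 0.084 also passed (limma, adjusted p = 1.15e-05), and at 1.45-fold lower it was close to that of Mt2 in size. With this probe set neither the strain by treatment interaction (F = 1.26, limma, adjusted p = 0.36) nor the greater spread between animals was seen for Mt1, since the SD ratio was -0.26 on the log2 scale (permutation test, adjusted p = 0.671). Over the 31 strains the changes of the bright and the dim Mt1 probe set had r = 0.62. The changes of the Mt2 probe set had r = 0.96 with the bright Mt1 probe set and r = 0.67 with the dim one. Mt1 and Mt2 are alike in sequence, and cross-hybridisation between them was not tested.

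For Slc30a1 the second, dimmer probe set averaged 6.80 ± 0.29 log2 units in isoniazid livers and 6.82 ± 0.24 in vehicle livers, a change of -0.02 ± 0.041 that did not pass (limma, adjusted p = 0.816), so the fall of this gene rests on 1 of its 2 probe sets. For Slc39a14 the second probe set by brightness averaged 6.34 ± 0.31 in isoniazid livers and 6.01 ± 0.27 in vehicle livers, and was higher in 29 strains. Its change of 0.33 ± 0.045 passed (limma, adjusted p = 8.4e-07), while the third (0.14) and the fourth (-0.0008) did not. For Mtf1, 4 of the 5 probe sets did not pass, and the third by brightness was higher by 0.12 ± 0.036 (limma, adjusted p = 0.0144), in 26 strains. Which transcript each probe set detects was not tested.

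**Figure D3:**
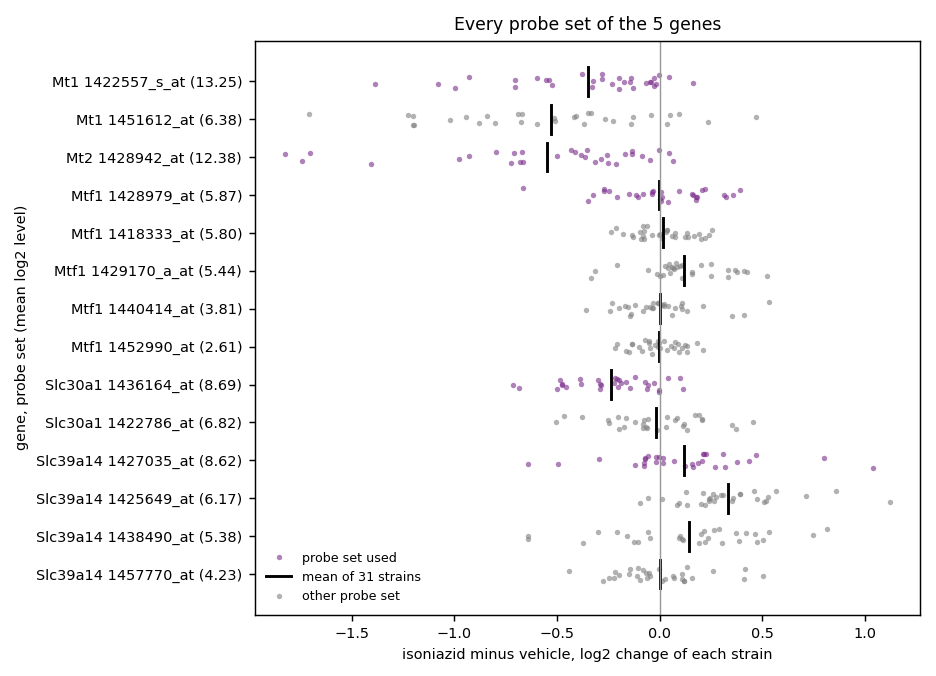
Change of each strain (points, isoniazid minus vehicle, log2 units on the horizontal axis) for the 14 probe sets of the 5 genes (rows, with the mean level of each in brackets), purple where the probe set was used for the gene and grey otherwise, with a bar at the mean of 31 strains. Both Mt1 probe sets and the Mt2 probe set lie mostly left of 0, the 2 probe sets of Slc30a1 differ, and the second brightest of Slc39a14 lies to the right in 29 strains.

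The responses of the 5 genes did not pass a test between strains with and without steatosis. Mt2 changed by -0.64 ± 0.57 log2 units in the 13 steatosis strains and by -0.48 ± 0.48 in the 18 others (SD), a difference of -0.16 with a 95% interval of -0.52 to 0.20. Mt1 differed by -0.12 (interval -0.38 to 0.14), Slc30a1 by -0.07 (-0.23 to 0.08), Slc39a14 by 0.07 (-0.16 to 0.31) and Mtf1 by 0.10 (-0.07 to 0.27), all with a limma adjusted p of 1. Of all genes 0% passed this test, and 491 had an unadjusted p under 0.05. Vehicle levels did not pass a test by status either: Mt2 averaged 12.59 ± 0.59 in steatosis strains and 12.67 ± 0.43 in the others (limma, adjusted p = 0.992), where 0% of all genes passed and 737 had an unadjusted p under 0.05.

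In the 9 strains with deaths Mt2 changed by -0.65 ± 0.59 log2 units and in the 22 others by -0.51 ± 0.50 (SD), a difference of -0.13 with a 95% interval of -0.53 to 0.26. The intervals for Mt1 (-0.40 to 0.17), Slc30a1 (-0.18 to 0.16), Slc39a14 (-0.36 to 0.14) and Mtf1 (-0.25 to 0.13) also spanned 0, each with a limma adjusted p of 1. Again 0% of all genes passed, and 422 had an unadjusted p under 0.05. The animals that died were not measured.

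The genes were then compared with each other over strains, with 20 relations computed (10 pairs, each in vehicle level and in change) and p-values adjusted over them. Mt1 and Mt2 varied together in vehicle level (Pearson r = 0.94, Spearman rho = 0.92, n = 31 strains) and in change (r = 0.96, rho = 0.95), each with a permutation p of 1e-05, the smallest that 100000 permutations can give, and an adjusted p of 6.67e-05. Without the 2 strains farthest from the median of Mt1, r was 0.91 for level and 0.94 for change. These values belong to the brighter Mt1 probe set, and with the dimmer one the r of the changes was 0.67. Within groups the deviations of single animals from their group mean had r = 0.90 over 235 animals, given as a description.

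Slc30a1, by the brighter of its 2 probe sets, varied with both metallothioneins. Its vehicle level had r = 0.71 and rho = 0.80 with Mt2 (permutation p = 1e-05 for each, adjusted p = 6.67e-05) and r = 0.57 and rho = 0.63 with Mt1 (permutation p = 0.00095 and 0.00033, adjusted p = 0.00475 and 0.00165). Its change had r = 0.55 and rho = 0.59 with Mt2 (permutation p = 0.00122 and 0.00058, adjusted p = 0.00488 and 0.00232), and r was 0.62 without the 2 farthest strains. With the change of Mt1 it had r = 0.51 and rho = 0.49 (permutation p = 0.00314 and 0.00531, adjusted p = 0.0105 and 0.0152), and r was 0.56 without the 2 farthest. For Mtf1 the relation with Mt2 did not pass, with r = 0.12 and rho = 0.12 for vehicle level and r = 0.06 and rho = 0.10 for change (permutation test on r, adjusted p = 0.685 and 0.842). Without the 2 farthest strains r was 0.08 for vehicle level and 0.31 for change. The change of Slc39a14 had r = 0.06 and rho = 0.18 with that of Mt2 (permutation test on r, adjusted p = 0.842), and r was 0.44 without the 2 farthest strains. It had r = 0.46 with the change of Mtf1 (permutation p = 0.00894, adjusted p = 0.0255), with rho = 0.54 and r was 0.41 without the 2 farthest. With the change of Slc30a1 it had r = 0.42 (permutation p = 0.019, adjusted p = 0.0475) and rho = 0.40, which did not pass (permutation p = 0.0262, adjusted p = 0.0583). Without the 2 farthest strains that r was 0.21, so the relation rests on them.

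**Figure D4:**
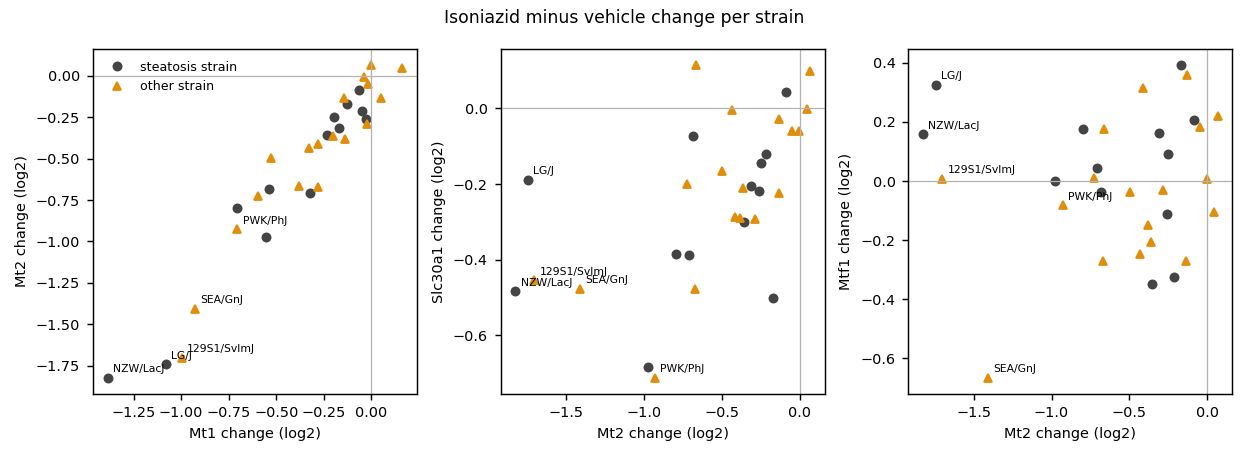
Change per strain (isoniazid minus vehicle, log2 units on both axes) of Mt2 against Mt1, Slc30a1 against Mt2 and Mtf1 against Mt2, with steatosis strains as dark circles and other strains as triangles. By their brighter probe sets Mt1 falls along 1 line with Mt2 (r = 0.96) and Slc30a1 follows Mt2 more loosely (r = 0.55). Mtf1 does not follow Mt2 (r = 0.06).

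By likeness over the 31 strains, the gene whose change was most like that of Mt1 was Mt2 (r = 0.96), followed by Mtap (0.89), Prodh (0.81), Lppos (0.80) and Prox1os (0.77). For vehicle level the order for Mt1 was Mtap (0.98), Mt2 (0.94), Camk2a (0.75), Crct1 (0.75) and Gm32960 (0.72). Mt2 had the same leading genes in change, Mt1, Mtap (0.89) and Prodh (0.79), then Rasgrp2 (0.77) and Cyp4f13 (0.76), and in vehicle level Mt1, Mtap (0.93), Crct1 (0.77), Kcnip1 (0.72) and Camk2a (0.72). Of the 4 probe sets annotated to Mtap, the gene of a purine and methionine salvage enzyme, the brightest alone tracked Mt1. It averaged 10.63 in isoniazid livers and 11.22 in vehicle livers, whereas the other 3 had means of 6.06 to 7.54 and r with the vehicle level of Mt1 of 0.07 to 0.20. What that probe set detects was not tested.

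For Slc30a1 the changes most like its own were those of Acsm3 (0.82), Hpn (0.78), Zfp36l2 (0.77), Clcc1 (0.76) and Prr14 (0.75), and the vehicle level most like its own was that of Mt2 (0.71), then Aph1b (0.69), Lonrf3 (0.69), Tfpi (0.68) and Atp6v1g1 (0.68). For Slc39a14 they were Il13ra1 (0.77), Plbd1 (0.75), Esr1 (0.74), Daglb (0.74) and Rnf144b (0.72) in change, and Fndc3a (0.64), Stap2 (0.63), Fbxo42 (0.61), Zfp664 (0.60) and Ntsr1 (0.58) in vehicle level. For Mtf1 they were Tox4 (0.85), Wdr48 (0.845), Lman2 (0.83), Fem1b (0.83) and Stxbp5 (0.82) in change, and Dido1 (0.76), Ccnt1 (0.75), Swt1 (0.74), Dnajb4 (0.73) and Krit1 (0.71) in vehicle level. These are the 5 highest values among all genes, all from the same arrays, and carry no test.

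In the wider zinc machinery the calls ran in both directions, in a test that 9.85% of all genes passed lower and 10.2% higher. Of the 13 other zinc importers of the Slc39 family, 4 rose, 4 fell and 5 did not pass, and the median change was 0.02 log2 units, against 0.001 for all genes. Slc39a9, a transporter of the secretory pathway, rose by 0.22 ± 0.046 log2 units (SE, limma, adjusted p = 0.000597), and Slc39a7, which releases zinc from the endoplasmic reticulum, rose by 0.19 ± 0.047 (adjusted p = 0.00359). Slc39a11 rose by 0.17 and Slc39a3 by 0.13. The plasma membrane importer Slc39a1 fell by 0.13 ± 0.029 log2 units in 25 strains of 31 (limma, adjusted p = 0.000928), and Slc39a2, Slc39a5 and Slc39a8 fell by 0.26, 0.14 and 0.12. Of the 9 other zinc exporters of the Slc30 family, 0 passed in limma, with changes of -0.05 to 0.11 and a median of 0.02, and Slc30a5, which loads zinc into the secretory pathway, came nearest (0.11, adjusted p = 0.0544). Slc30a1 was thus the sole gene of its family to pass in this fit, although up to 3 of the others passed, all higher, in other settings. That call rests on the brighter probe set of Slc30a1, since the dimmer one changed by -0.02 (limma, adjusted p = 0.816).

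**Figure D5:**
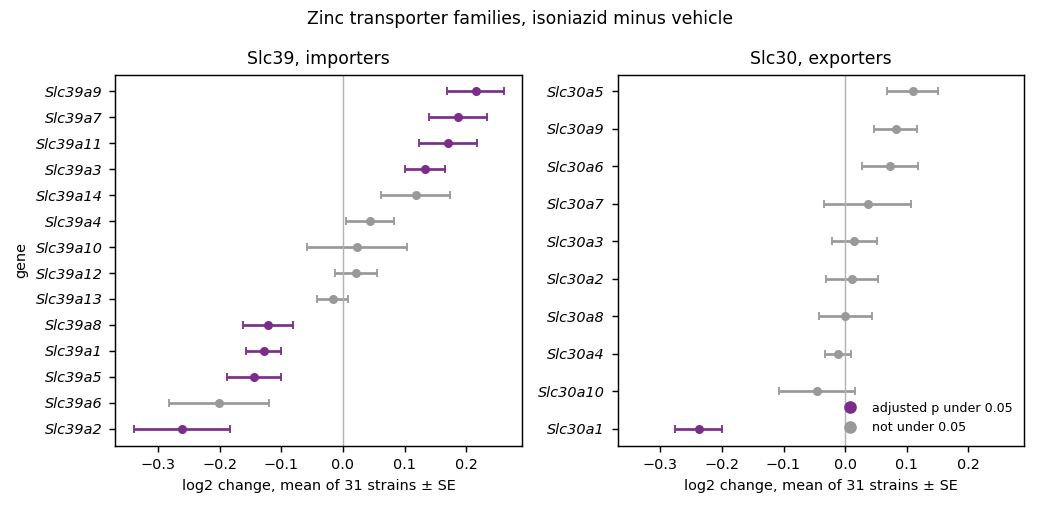
Log2 change (horizontal axis, isoniazid minus vehicle, mean of 31 strains with SE as bars) of each gene of the Slc39 importer family on the left and the Slc30 exporter family on the right, purple where the limma adjusted p was under 0.05 and grey otherwise. Importers lie on both sides of 0. Among exporters Slc30a1, by its brighter probe set at -0.24, stands apart from genes between -0.05 and 0.11. Its dimmer probe set, not drawn, was at -0.02.

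The other metallothionein genes, Mt3 and Mt4, which are typical of brain and of stratified epithelium, were dim at mean levels of 3.80 and 2.94 log2 units, and neither passed (limma, changes of -0.06 and -0.03). Of all genes 9.85% fell and 10.2% rose in this test. Of 4 other reported MTF1 targets, 2 fell and 2 did not pass: Gclc, a subunit of the enzyme that starts glutathione synthesis, fell by 0.34 ± 0.044 log2 units (SE, limma, adjusted p = 4.44e-07) and Ndrg1 by 0.43 ± 0.057 (adjusted p = 5.86e-07), while Csrp1 (0.07) and Slc39a10 (0.02, also counted among the importers) did not. Of 12 genes of copper handling, 4 rose and 3 fell, with a median of 0.05. Commd1, which takes part in copper export, rose by 0.27 (limma, adjusted p = 4.11e-07), and Cox17 and Sco2, which deliver copper to cytochrome c oxidase, rose by 0.16 and 0.14. Cp, the copper-carrying plasma protein ceruloplasmin, fell by 0.07 log2 units (adjusted p = 0.00524).

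Genes of other known inducers of metallothioneins were counted in the same test, in which 9.85% of all genes fell and 10.2% rose. Of 14 glucocorticoid targets, 7 fell and 0 rose, with a median change of -0.18 log2 units. Hsd11b1, which reactivates glucocorticoid in the liver, fell by 0.33 ± 0.041 (SE, limma, adjusted p = 1.99e-07) and was lower in 30 strains. Dusp1, a phosphatase gene, fell by 0.56, Klf9 by 0.23 and Nr3c1, the glucocorticoid receptor, by 0.13. The other 7 did not pass: Errfi1 (-0.15), Pck1 (0.11), Sgk1 (-0.22), Fkbp5 (-0.11), Ddit4 (-0.15), Igfbp1 (-0.11) and Tat (0.0019). Of 26 acute phase genes and interleukin 6 targets, 9 fell, 1 rose and 16 did not pass, with a median of -0.08. Lbp, a binding protein for bacterial lipopolysaccharide, fell by 0.38 ± 0.040 (limma, adjusted p = 1.31e-08), Saa3 by 0.61, Il1r1 by 0.38 and Itih4 by 0.22. The 1 that rose was Serpina3n (0.17, limma, adjusted p = 0.0152).

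Against the same 9.85% lower and 10.2% higher over all genes, 8 of 16 NRF2 targets fell and 2 rose, with a median of -0.12 log2 units. Those that fell include Gclc, already counted above, and its partner Gclm, by 0.19 in 30 strains (limma, adjusted p = 3.87e-06). Osgin1 and Abcc4 fell by 0.57 and 0.37. The 2 that rose were Srxn1 (0.31, limma, adjusted p = 0.00347) and Txnrd1 (0.12, limma, adjusted p = 0.00781). Of 15 circadian clock genes 3 fell, Hlf by 0.23, Cry1 by 0.23 and Per1, also a glucocorticoid target above, by 0.215, while Clock (-0.13) did not pass, and the median was -0.02. With 20.0% of all genes called in either direction, the count of clock genes called is near the background. Whether any of these lists had a part in the lower metallothionein RNA was not tested.

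Markers of other liver cells were counted in the same test, where 9.85% of all genes fell and 10.2% rose. Of 16 macrophage markers 9 fell and 0 rose, among them Csf1r (-0.28), Cd5l (-0.28), Lyz2 (-0.26) and C1qc (-0.22). The mean level of the list ran from 5.49 to 8.13 log2 units over isoniazid groups and from 5.82 to 7.86 over vehicle groups. Of the endothelial markers 2 of 12 fell, of the B cell markers 2 of 6, and 1 each of the T and NK cell (10), stellate cell (10), bile duct (5), neutrophil (6) and red cell (4) markers, with 0 higher in any of these lists. Apart from the macrophage list, these are counts of 1 or 2 genes, from which nothing is read against that share. Among 8 hepatocyte markers Hnf4a fell by 0.20 in 31 strains, Cps1 rose by 0.17 and 6 did not pass. The part of these markers in the changes of Mt1, Mt2 and Slc30a1 was not tested.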

How the data were processed

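RNA of 235 left liver lobes was measured on Affymetrix expression arrays, 1 array per animal. The authors deposited a log2 level for each probe set, and the submitters' processing notes name RMA and Affymetrix Power Tools (versions: not given in the sources used here). Since RMA equalises probe intensities between arrays, it can hide a change shared by most genes. Of 44721 probe sets, the array annotation gave 1 gene symbol for 34717, several for 872 and none for 9072, and 60 were controls. Each of 18146 genes was represented by its probe set of highest mean, with no filter on dim genes.

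The isoniazid mean minus the vehicle mean of each strain was tested over 31 strains with limma 3.58.1 (lmFit, eBayes) in R 4.3.3, two-sided. Within-strain effects and F tests used a limma fit of all groups with animals as replicates, and the code of the steatosis status or of deaths was tested between strains. Benjamini-Hochberg adjustment ran over all genes, with 0.05 as the threshold. Single values were tested by permutation with 100000 resamples. The limma steps were tested on simulated data.

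The members, gene lists, tests and alternatives were chosen with earlier results of these data known. The text names the 5 genes with every probe set of each, up to 4 genes per list by the size of the moderated t, each zinc transporter that passed, and the 5 genes most like each member. Also named are the glucocorticoid targets that did not pass, the NRF2 targets that rose and the acute phase gene that rose. The lists were zinc importers, zinc exporters, other metallothioneins, other reported MTF1 targets, copper handling, glucocorticoid targets, acute phase and interleukin 6 targets, NRF2 targets, clock genes and 9 lists of cell type markers. Genes listed but not found were not analysed here. Alternatives were scan date as a term (10 dates, 22 to 24 arrays each), centring, averaging all probe sets of a gene, no dim genes (below percentile 40), eBayes with trend and robust settings, leaving out the 21 narrow arrays, strains without deaths alone, the animal number as a block, each animal number or strain left out, weights, animals as replicates and a 1.5-fold threshold. Promoter sequences came from RefSeq (GRCm38.p6), for 4 of the 5 genes.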

Additional observations from a re-analysis of the deposited data

Results flagged for a closer look

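With the probe sets used, the effect of isoniazid differed between strains for Mt1 (interaction F = 3.04, limma, adjusted p = 7.97e-05) and Mt2 (F = 2.65, limma, adjusted p = 0.000755). Of all genes 17.0% passed this test. For Mt1 it did not pass with the dimmer probe set (F = 1.26, limma, adjusted p = 0.36) or the mean of its probe sets (F = 1.85, limma, adjusted p = 0.0507). Neither gene passed without the animals numbered 1. In a search for single animals far from the other 3 of their group, 13 of 265 tests stood out (53 groups of 4 animals, each tested for 5 genes), where chance gives about 1 in 20. NOD/LtJ and CBA/J each have 1 animal that stood out for 2 genes. The value given is the gap to the nearest animal as a share of the group's range. Among isoniazid groups, NOR/LtJ had 1 animal with low Mt1 (12.50, others 12.97 to 13.02, share 0.915), C58/J 1 with low Mt2 (12.39, others 13.32 to 13.49, share 0.845) and SWR/J 1 with high Slc30a1 (9.05, others 8.92 to 8.94, share 0.887). In CBA/J the same isoniazid animal was low in Mtf1 (5.23, others 5.90 to 5.91, share 0.990) and in Slc30a1 (8.20, others 8.63 to 8.71, share 0.843), and its array was 1 of the 21 with a narrow spread.

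Among vehicle groups, 1 animal of NOD/LtJ was low in both Mt1 (13.23, others 13.35 to 13.37, share 0.876) and Mt2 (12.71, others 12.84 to 12.85, share 0.865), and 1 of FVB/NJ in Mt2 (13.19, others 13.53 to 13.57, share 0.898). For Mtf1 single vehicle animals were high in C57Bl/6J (6.17, others 5.82, share 0.997), NON/LtJ (6.01, others 5.57 to 5.60, share 0.924) and SEA/GnJ (6.74, others 6.19 to 6.26, share 0.873). MA/MyJ had 1 vehicle animal with low Slc39a14 (8.27, others 8.63 to 8.65, share 0.931), and CE/J 1 with low Slc30a1 (7.88, others 8.596 to 8.72, share 0.852), on an array with a narrow spread.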

How the results depend on the processing

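The falls of Mt1, Mt2 and Slc30a1 over strains kept their direction and passed under each alternative run, with these exceptions: a threshold that also asks for 1.5-fold was met by none (-0.35, -0.55 and -0.24), and the dimmer probe set of Slc30a1 gave -0.0192. Slc39a14 passed with the mean of its probe sets (0.15), with animals as replicates (0.12) and with its second probe set (0.33), and was -0.0008 with the dimmest. It ranged from 0.0335 to 0.1662 with animal numbers left out and from 0.0872 to 0.1432 with strains left out. Mtf1 turned positive after centring (0.0086), with the mean of its probe sets (0.0265), without narrow arrays (0.0061), in strains without deaths (0.0160), with the replicate block (0.0024), with weights (0.0050) and with 3 of its 4 other probe sets (0.0159, 0.1197 and 0.0039). It ranged from -0.0213 to 0.0091 with animal numbers left out and from -0.0148 to 0.0205 with strains left out. The interaction F of Mt1 was 1.85 when its probe sets were averaged (adjusted p = 0.0507) and 1.26 with the dimmer one, neither passing, and ranged from 1.99 to 3.58 with animal numbers left out, and that of Mt2 from 1.62 to 3.55. That of Slc39a14 passed without dim genes (1.82), with trend and robust settings (1.84) and in strains without deaths (2.17). The log2 SD ratio of Mt1 was 0.0032 with the mean of its probe sets and -0.26 with the dimmer one, that of Mt2 0.57 with scan date, and that of Mtf1 0.0429 after centring and 0.21 with the mean of probe sets. The number of strains that passed for Mt1 was 2 with the mean of its probe sets and 2 to 4 with animal numbers left out, for Mt2 3 without narrow arrays and 3 to 4, for Slc30a1 0 with the mean of probe sets and 0 to 2, for Slc39a14 1 to 2 and for Mtf1 0 to 1. Of the zinc exporters 1 was higher with scan date, without dim genes, in strains without deaths, with the replicate block and with weights, 2 after centring and with animals as replicates, 3 without narrow arrays and 0 to 1 with animal numbers left out. Of the zinc importers 0 were higher and 0 lower at 1.5-fold, and 2 to 4 were lower with animal numbers left out. Differences that never passed changed sign as follows. For change by steatosis, Slc39a14 was -0.0046 without narrow arrays and -0.0124 in strains without deaths, and ranged from -0.0003 to 0.13 with animal numbers or strains left out. For change by deaths, Mtf1 was 0.0204 with the mean of probe sets and Slc30a1 0.0235 without narrow arrays. With animal numbers or strains left out Mt2 ranged from -0.2236 to 0.0026 (highest without LG/J), Mtf1 from -0.1071 to 0.0168 and Slc30a1 from -0.0544 to 0.0264. For vehicle level by steatosis, Mt1 was 0.0702 with the mean of probe sets and 0.0234 in strains without deaths, and Mtf1 0.0144 without narrow arrays and 0.0569 in strains without deaths. With animal numbers or strains left out it ranged from -0.0615 to 0.0573 for Mt1, -0.1492 to 0.0315 for Mt2, -0.0655 to 0.0400 for Mtf1, -0.0215 to 0.0671 for Slc30a1 and -0.0505 to 0.0839 for Slc39a14. The r of the changes of Mt1 and Mtf1 was -0.0198 with scan date, -0.1064 with the mean of probe sets, -0.0643 without narrow arrays and -0.0732 in strains without deaths, and that of Mt2 and Mtf1 was -0.0906, -0.0251 and -0.0328 in the last 3. Without narrow arrays r of Slc39a14 was -0.0174 with Mt1 and -0.0050 with Mt2, and in strains without deaths that of Mtf1 and Slc30a1 was -0.0010. The cause of these shifts was not tested. With the animal number as a replicate block Mt1 was -0.35, Mt2 -0.55 and Slc30a1 -0.24, each passing. The main fits did not treat same-numbered animals as pairs. The deviations of 111 same-numbered pairs had a median r of -0.02 (-0.42 to 0.78), with 23 over 0.1. This check cannot show that no pairing exists.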
